A study of Mus musculus with 8 samples.

Results

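The set described here is the lens epithelium of mouse embryos (E14.5) and newborn mice (P0.5), compared through the open chromatin peaks called at only 1 of these stages. A peak of either pooled list belonged to the set when no peak of the other list overlapped it by even 1 bp. This rule gave 58025 E14.5-only peaks of 100003 and 12812 P0.5-only peaks of 58592, together 70837 of the 345333 peaks in the 4 lists of the series. When the E14.5 list was reduced to the size of the P0.5 list, the numbers were 21183 and 17216. Genes were then sorted by whether they lost or gained a promoter peak, defined as a peak within 2 kb of a curated RefSeq transcription start site, and by the share of the gene body that peaks covered.

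The series profiled chromatin accessibility by ATAC-seq, in which a transposase cuts and tags accessible DNA, in epithelium and fibers dissected from lenses of CD1 mice, an outbred stock, at both ages. The labels name no treatment and no altered allele, so age was the only labelled difference between the E14.5 epithelium and the P0.5 epithelium. Each library pooled several lenses, more cells went into a P0.5 epithelium library than into an E14.5 one, and the 2 libraries of each group were pooled before the peaks used here were called. With 1 list per group there was no replicate, so values carry no SD and no test, and 95% intervals (Wilson for shares, Newcombe for differences of shares) cover counting error only. Read counts are not part of the lists and library totals were not used here, so no value is weighed by depth. In bulk tissue a smaller share of 1 cell type cannot be told apart from less open chromatin in each of its cells.

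The lens epithelium is a single sheet over the front of the lens. Its cells divide, and those displaced past the equator leave the cell cycle and elongate into fibers packed with crystallins, the soluble proteins that give the lens its refractive power. The sheet keeps its identity through factors such as Pax6, Foxe3 and Pitx3, lays down the lens capsule as its basement membrane, and pumps ions and water for the fibers beneath it. An ATAC-seq peak at a promoter marks a start site that is accessible to transcription factors, and long stretches of peaks over a gene body are typical of strongly transcribed genes.

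The sequences of 7 promoter peaks called at 1 stage are printed here because they carry the gene-level result: they are drawn from the highest-ranked promoter peaks of the genes, or of the listed genes, that lost or gained one. Each is the 200 bp around the summit, read from the GRCm38 assembly. Capitals mark matches to GGAATG (Tead), TGANTCA (AP-1), TGCTGA (Maf), ACAATG (Sox), TAATTA (homeobox), CAGGTG (Zeb E-box), GGGCGG (Sp/Klf) or CCNCTAG (CTCF), on either strand, or to the NF1 palindrome.
Cox7b (GRCm38 chrX:106015585-106015784, plus strand): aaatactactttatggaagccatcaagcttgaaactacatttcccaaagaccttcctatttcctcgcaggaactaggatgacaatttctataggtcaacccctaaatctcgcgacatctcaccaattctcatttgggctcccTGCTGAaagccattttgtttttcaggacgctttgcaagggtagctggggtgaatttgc
Lin28a (GRCm38 chr4:134020024-134020223, plus strand): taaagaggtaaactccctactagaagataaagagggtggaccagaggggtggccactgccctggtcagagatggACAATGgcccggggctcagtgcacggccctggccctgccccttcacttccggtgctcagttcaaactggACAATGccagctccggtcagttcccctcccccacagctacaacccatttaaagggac
Lin28b (GRCm38 chr10:45469551-45469750, plus strand): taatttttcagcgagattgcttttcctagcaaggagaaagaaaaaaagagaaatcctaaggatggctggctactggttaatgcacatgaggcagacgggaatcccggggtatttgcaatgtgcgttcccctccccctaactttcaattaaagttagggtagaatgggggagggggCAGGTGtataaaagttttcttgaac
Hoxd10 (GRCm38 chr2:74691674-74691873, plus strand): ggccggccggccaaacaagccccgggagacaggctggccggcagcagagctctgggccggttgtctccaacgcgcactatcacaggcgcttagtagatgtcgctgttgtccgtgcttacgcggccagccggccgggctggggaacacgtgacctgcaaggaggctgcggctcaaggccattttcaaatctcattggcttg
Gstm2 (GRCm38 chr3:107986303-107986502, plus strand): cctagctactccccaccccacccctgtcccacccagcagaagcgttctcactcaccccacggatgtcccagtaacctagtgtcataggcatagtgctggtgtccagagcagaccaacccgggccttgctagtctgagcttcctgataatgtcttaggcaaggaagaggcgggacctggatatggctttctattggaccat
Psmb8 (GRCm38 chr17:34197525-34197724, plus strand): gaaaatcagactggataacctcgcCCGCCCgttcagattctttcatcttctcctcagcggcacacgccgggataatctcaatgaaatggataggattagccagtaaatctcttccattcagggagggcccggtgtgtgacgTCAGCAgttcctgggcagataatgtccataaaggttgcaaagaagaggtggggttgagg
Ocln (GRCm38 chr13:100552658-100552857, plus strand): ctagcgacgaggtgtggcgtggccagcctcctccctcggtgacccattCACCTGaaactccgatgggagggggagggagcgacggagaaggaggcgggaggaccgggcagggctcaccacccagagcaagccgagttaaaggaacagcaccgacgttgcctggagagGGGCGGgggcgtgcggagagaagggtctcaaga
The first 4 were called at E14.5 only and the last 3 at P0.5 only. Cox7b encodes a subunit of cytochrome c oxidase and its window held a Maf match, and the Lin28a window held 2 Sox matches with its summit at -1308 bp from the nearest start site. The Lin28b window held a Zeb E-box with its summit 550 bp inside the gene, and the Ocln window held a Zeb E-box and an Sp/Klf match with its summit at -40 bp. The Hoxd10 and Gstm2 windows held none of these letters, and the Psmb8 window held a Maf and an Sp/Klf match. Among all 158423 placed peaks of both lists, 20.2% held the Maf letters, 9.98% the Sox letters, 13.6% the Zeb E-box and 19.8% the Sp/Klf letters, so such matches are common.

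Peaks called at 1 stage were weak members of their own list. The lists were ranked by fold enrichment over background, within each list. None of the top 1% of either list was called at 1 stage only, and 11 E14.5-only and 4 P0.5-only peaks stood in the top 10%. In the lower 50% of ranks stood 73.5% of the E14.5-only peaks and 91.2% of the P0.5-only peaks. The share without a partner rose from 0.109% (0.0611 to 0.196%) in the strongest 10% of the E14.5 list to 95.8% (95.1 to 96.5%) in the weakest, and from 0.0656% (0.0255 to 0.169%) to 68.9% (66.9 to 70.9%) in the P0.5 list. The median E14.5-only peak was 168 bp wide and the median P0.5-only peak 126 bp, and they covered 12.1 Mb and 1.87 Mb in all. The weakest peaks deposited had a −log10 q of 1.62 at E14.5 and 1.84 at P0.5, and 80.4% of E14.5-only but 62.2% of P0.5-only peaks also had q under 0.001.

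**Figure D1:**
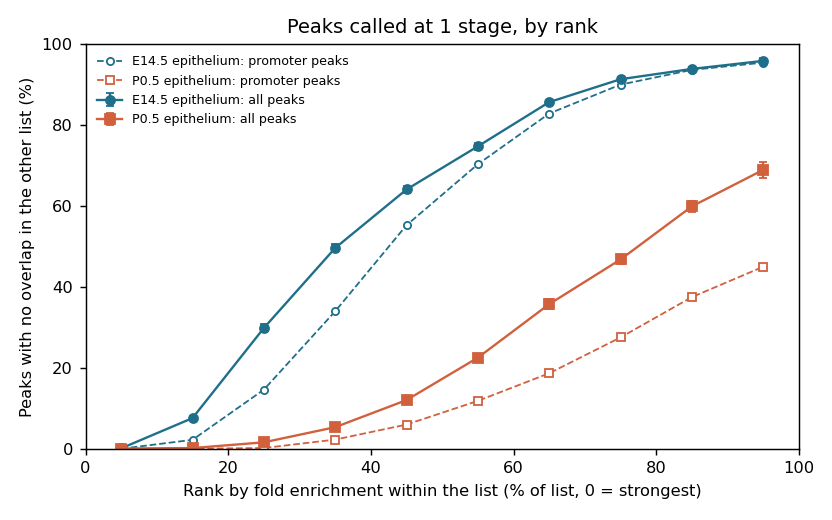
Share of peaks with no overlapping peak at the other stage (vertical axis, %) by rank within the list (horizontal axis, in steps of 10% of the list, strongest at the left). Filled symbols are all peaks with 95% Wilson intervals and open symbols are promoter peaks; every curve starts near 0, and in the weakest 10% the all-peak share reaches 95.8% for E14.5 and 68.9% for P0.5.

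The plot by rank shows that promoter peaks were shared more often than other peaks of like strength. At ranks of 30 to 40% in the E14.5 list, 34.0% of promoter peaks and 52.7% of other peaks had no partner at P0.5. At the same ranks of the P0.5 list the shares were 2.27% and 6.43%. Promoters made up 14.4% (14.1 to 14.7%) of the E14.5-only and 10.7% (10.2 to 11.2%) of the P0.5-only peaks, against 39.2% and 41.4% of the shared peaks of either list. The first 2 shares were 12.8% and 12.6% with equal list sizes, and their order turned, to 17.4% and 26.3%, when an overlap of 50% of both peaks was required. Most of the set lay in gene bodies, at 54.8% and 55.9%, and P0.5-only peaks lay more often over 50 kb from any gene, at 11.5% (10.9 to 12.1%) against 7.68% (7.47 to 7.90%). The X chromosome held a smaller share of these peaks than any autosome: 41.7% of its E14.5 peaks and 10.2% of its P0.5 peaks were called at 1 stage, against 56.0 to 60.9% and 18.5 to 24.9% on the autosomes. Repeat-masked sequence filled at least 50% of the summit window in 2.91% of E14.5-only and 2.45% of P0.5-only peaks, and in 0.725% and 0.667% of the shared ones.

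Peaks called at 1 stage were in the fiber lists less often than epithelium peaks in general. A peak of the E14.5 fiber list overlapped 55.2% (54.8 to 55.6%) of the E14.5-only epithelium peaks but 26.5% (25.8 to 27.3%) of the P0.5-only peaks, beside 69.3% of all E14.5 and 75.4% of all P0.5 epithelium peaks. The P0.5 fiber list overlapped 11.9% and 10.2% of them, beside 27.5% and 39.3% of all. In no fiber list were 41.7% of the E14.5-only and 67.9% (67.0 to 68.7%) of the P0.5-only peaks, beside 28.6% and 22.8% of all. Peaks called at 1 stage ranked lower than epithelium peaks in general, and these shares were not matched for rank. The 2 fiber lists differ in size, and the part that fibers in the dissected sheet had in these shares was not tested.

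None of the 5 strongest E14.5-only peaks was at a promoter. The strongest lay in the body of Cwc22, a splicing factor gene (chr2:77910399-77911157, rank 3553 of 100003, fold enrichment 53.7), and another of the 5 strongest, at rank 8153, was nearest to Mir148a, 96882 bp from its start. The second, at rank 7166, lay inside Caprin2, an RNA-binding protein gene active in lens fibers. The next was distal to 4930440I19Rik (chr2:78026929-78027142), on the same chromosome as the Cwc22 peak, and the last of these 5 lay near Rnu5g. All 5 were also in the E14.5 fiber list, and those at Cwc22, 4930440I19Rik and Mir148a were in no P0.5 list of either tissue. The strongest P0.5-only peaks were of another kind: the first 3 were intergenic, at 170016 and 167959 bp from the start of Gm2237 and 1196194 bp from that of Lrrc4c, in windows that were 86%, 98% and 70% repeat, and the windows at E030030I06Rik and Gm6194 were 25.5% and 32.5% repeat. The next in order, with 0.5% repeat, lay at -21561 bp from the start of Igf2bp3, a fetal mRNA-binding protein gene, at rank 7490 of 58592.

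More genes lost than gained a promoter peak, but not when lists of equal size were compared. A promoter peak was found at both stages for 13853 of the 21000 protein-coding genes, at E14.5 only for 907 (4.32%), at P0.5 only for 210 (1%) and at neither for 6030. When the E14.5 list was reduced to its 58592 peaks of highest −log10 p, the same size as the P0.5 list, 463 genes lost and 499 gained a promoter peak, and all 463 were among the 907 and all 210 among the 499. The peaks behind these changes were weak: the best promoter peak stood at a median of 55.5% of the E14.5 ranks for lost genes and 75.7% of the P0.5 ranks for gained genes, against 7.05% and 12.8% for genes with peaks at both. Lost and gained promoters were also poor in CpG. The median ratio of observed to expected CpG in the 500 bp around the start site was 0.338 for lost, 0.318 for gained, 0.803 for kept and 0.177 for peakless genes, with the highest ratio of each gene's start sites taken.

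Near the 2 kb limit neighbouring values fell on either side. The nearest P0.5 peak of a lost gene lay at 2005 bp and that of a kept gene at up to 1994 bp, and 121 lost genes had a P0.5 peak within 3 kb. For 888 of the 907 lost and 209 of the 210 gained genes, every promoter peak was itself called at 1 stage only. In the other 19 lost genes a wide E14.5 peak reached the promoter and a P0.5 peak overlapped it farther out. Lost promoters were in the E14.5 fiber list for 73.8% of genes and in the P0.5 fiber list for 42.6%, and gained promoters for 49.0% and 39.5%. For kept promoters these shares were 99.3% and 92.1%, and for genes with no epithelium promoter peak 7% and 5.82%.

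Among the 10 highest-ranked lost genes, these were of that overlapping kind: Tnp2, Doc2g, Itga2b, Gm38999, Myh7b, Smim24 and Astl. The other 3 were Cox7b (1 promoter peak, rank 12108), Lin28a (4 promoter peaks, best rank 12535) and Slc15a3, a peptide and histidine transporter (2 promoter peaks, 14.2% of ranks). None of these peaks had a partner at P0.5. The highest-ranked gained genes each had 1 promoter peak at P0.5 and none at E14.5. They were Dynlt1c, a dynein light chain gene (31.6% of P0.5 ranks), 4930555G01Rik, Aox3, an aldehyde oxidase, Gstm2, a glutathione transferase, and Nap1l2, each of these 4 at 33.9%, then Brinp1, Folh1 and Zfp456 at 36.4%, and Als2cl, Mrgpra3 and Tmie, which tied at 39.5%. The 4930555G01Rik window was 70% repeat.

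Both lists held the lens epithelium markers. All 16 lens epithelium markers, all 37 lens transcription factors, all 46 genes of DNA replication and cell division and all 15 of cell cycle exit kept a promoter peak, so 0 of each list was lost or gained. Pax6, the master regulator of eye development, had 9 promoter peaks at E14.5 and 8 at P0.5. Foxe3, a forkhead factor confined to the lens epithelium after birth, had 1 promoter peak at each stage, at 4.26% and 7.95%. Of all genes whose best E14.5 promoter peak stood at ranks like those of the lens transcription factors, 2.03% lost it. At ranks like those of the lens epithelium markers 0.426% did, and like those of the replication genes, 0.0937%. In gene body coverage 8 of the 16 lens epithelium markers fell by at least 10 percentage points (50%, against 9.13% of all genes). Of the 10 with at least 10% coverage at E14.5, 80% fell by that much, beside 47.7% of all such genes.

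A pair of fetal timing genes lost their promoter peaks. Lin28a and Lin28b, RNA-binding proteins that hold back maturation of the let-7 microRNAs in embryonic cells, were the 2 lost genes of the 24 measured fetal growth and heterochronic genes (8.33% against 4.32% of all genes, and 4.38% of all genes at like ranks), and 0 of the 24 was gained. Lin28a went from 4 promoter peaks to 0, with gene body coverage of 10.1% at E14.5 and 0 at P0.5. Lin28b went from 1 to 0, with its best peak at 27.7% of ranks and coverage of 2.67% and 0. The E14.5 fibers had promoter peaks at both genes, and the P0.5 fibers at Lin28a only. Both losses were also found with equal list sizes and with q under 0.001, where 2 and 3 genes of the list were lost and 1 and 0 gained.

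Other genes of the same list kept a promoter peak but fell in rank among the regions that both stages share. Igf2bp1, which binds fetal mRNAs, stood at 14% of the shared ranks at E14.5 and 47.7% at P0.5, Trim71, a heterochronic ubiquitin ligase, at 60.8% and 91.3%, and Arid3a, a DNA-binding factor, at 18.6% and 47.7%. These 3 of 19 ranked genes compare with 1.72% of all 13231 genes that fell by at least 25 percentage points. Ndn, an imprinted growth suppressor gene, went the other way, from 57.0% to 25.6%. Gene body coverage of Hmga2, a fetal chromatin protein, was 17.7% and 5.37%, and that of Mycn 55.6% and 19.7%. Of the 24 genes of the list, 7 fell by at least 10 points of coverage (29.2%, against 9.13% of all genes). Of the 16 with at least 10% coverage at E14.5 these were 43.8%, near the 47.7% of all such genes.

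Hox genes, the homeobox regulators of trunk and limb position, lost promoter peaks in a larger share of the whole list than the other lists examined, although of the 4 macrophage markers with an E14.5 promoter peak 75% lost it. Of 39 genes, 13 lost a promoter peak (33.3%), 0 gained one, 11 kept one and 15 had none. The lost genes were Hoxa4, Hoxa5, Hoxa7, Hoxa9, Hoxa11, Hoxb6, Hoxb8, Hoxc4, Hoxc10, Hoxc11, Hoxd3, Hoxd10 and Hoxd11, drawn from all 4 clusters. Their best E14.5 peaks stood between 27.7% (Hoxd10) and 97.0% (Hoxa9) of the ranks. Of the 24 Hox genes with a promoter peak at E14.5, 54.2% lost it, beside 32.3% of all genes at like ranks. Hoxd9, Hoxd12 and Hoxd13 kept a promoter peak but fell in rank (3 of 10 ranked, beside 1.72% of all ranked genes), Hoxd12 from 50.2% to 91.3%, and Hoxd8 rose from 69.8% to 44.6%. All 9 Hox genes covered by peaks over at least 10% of their length at E14.5 fell by 10 points or more, beside 47.7% of all such genes, as Hoxd9 did from 38.5% to 1.47%. The endothelium, macrophage, red blood cell and cornea lists, with 1 to 4 such genes each, also fell at all of them. With equal list sizes 8 Hox genes lost and 1 gained a promoter peak.

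**Figure D2:**
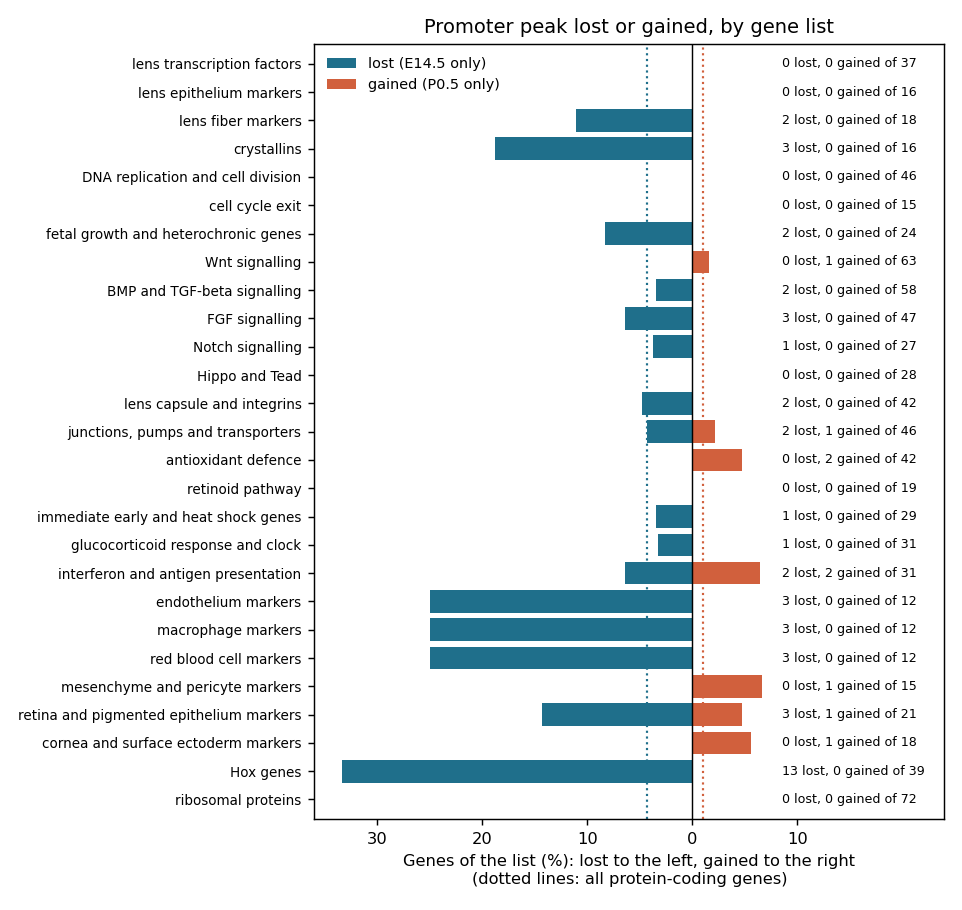
Percent of each gene list that lost (bars to the left) or gained (bars to the right) a promoter peak from E14.5 to P0.5, with counts at the right and dotted lines at the 4.32% and 1% of all protein-coding genes. Hox genes have the longest bar, 13 of 39 lost, and the lens regulators and division genes have none.

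The bars of the gene lists were also long for some cell types that are not lens epithelium. Markers of endothelium lost 3 of 12 (Tie1, Emcn and Eng), of macrophages 3 of 12 (Cd68, C1qc and the myeloid factor Spi1) and of red blood cells 3 of 12 (Hbb-bs and Ermap among them), and 0 of these 36 gained one. At E14.5 promoter peaks were found for 11, 4 and 6 genes of the 12 in each list, with medians at 32.1%, 50.9% and 45.7% of the ranks, and at P0.5 for 8, 1 and 3. No promoter peak at either stage was found for 1 endothelium marker (Pecam1), 8 macrophage markers (Ptprc, Aif1 and Lyz2 among them) and 6 red blood cell markers (Hba-a1 and Alas2 among them). Of all genes at like ranks 24.3%, 40% and 30% lost their peak, beside 27.3%, 75% and 50% of these. Retina and pigmented epithelium markers gained Tyrp1 and lost 3 of the 14 with an E14.5 promoter peak (21.4%, beside 17.4% of all genes at like ranks), and the lost Pou4f2 promoter, of a ganglion cell factor, went from 5 peaks to 0. Mesenchyme markers lost 0 of 15 and gained Rgs5, a pericyte gene, and cornea markers lost 0 of 18 and gained Aldh3a1, where 10.3% and 15.7% of all genes at like ranks lost their peak. The share of these cells in the dissected tissue was not measured.

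Lens fiber markers lost promoter peaks about as often as other genes of like rank. Of 18 lens fiber markers, Cryga and Birc7 lost a promoter peak, and of 16 crystallins Cryba4, Cryga and Crygb did. Among those with an E14.5 promoter peak these are 11.8% and 23.1%, beside 11.5% and 13.7% of all genes at like ranks. Their E14.5 peaks were weak, at 61.2%, 87.9% and 50.8% of ranks for the crystallins in that order and 77.7% for Birc7. Crygc, a gamma-crystallin, kept a promoter peak that went from 23.6% to 77.4% of the shared ranks, and so fell by 53.8 points. In gene body coverage, 6 of the 18 fiber markers (33.3%) and 6 of the 16 crystallins (37.5%) fell by at least 10 points, against 9.13% of all genes, and 0 rose by that much. Of those with at least 10% coverage at E14.5 these were 6 of 7 and 6 of 9, beside 47.7% of all such genes. Cryaa, the alpha-crystallin also made by epithelium, was covered over 100% of its body at E14.5 and 26.2% at P0.5, Crybb3 over 60.3% and 8.32%, and Mip, the fiber water channel, over 27.8% and 1%. In the E14.5 fibers the crystallin genes had a median coverage of 100% and in the P0.5 fibers 20.2%, beside 15.1% and 4.34% in the epithelium at these ages. So coverage was lower at P0.5 in both tissues, and how far fiber cells in the epithelium lists set these values was not tested.

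Gene body coverage was lower at P0.5 for most genes. Of 19556 genes of at least 1 kb, 14301 had lower and 1337 higher coverage at P0.5, with medians of 2.55% and 1.39%. The peaks of the whole lists covered 38.3 Mb at E14.5 and 20.3 Mb at P0.5. Shared peaks were also narrower at P0.5, with a median width of 449 bp at E14.5 and 268 bp at P0.5. How far this list-wide difference set the coverage of single genes was not tested. A fall of at least 10 percentage points was found for 1785 genes (9.13%) and a rise of that size for 14 (0.0716%). With equal list sizes the numbers were 1129 and 37. The 5 largest falls were in Tlx2, a homeobox gene (84.1% to 0), Znrf4 (90.4% to 7.36%), Rhbdl1 (89.1% to 7.89%), 4930404N11Rik (87.8% to 10.1%) and Hspb2, a small heat shock gene beside Cryab (87.5% to 10.5%). The 5 largest rises were in Pou4f3, a POU-domain factor (0 to 24.4%), Ccdc182 (0 to 17.6%), Tmem239 (0 to 16.3%), Lrrc3c (0 to 14.6%) and Kcna5, a potassium channel (7.35% to 21.6%).

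Of 37 lens transcription factors 16 fell by at least 10 points of coverage (43.2%, against 9.13% of all genes) and 0 rose. Pax6 went from 42.3% to 17.2%, Prox1, a fiber regulator, from 32.6% to 7.76%, Mafg from 88.0% to 35.2%, Gata3 from 17.3% to 0.985% and Six3 from 41.1% to 21.1%. Foxe3 was the 1 factor that was not lower, at 67.0% and 67.3%. Of the 24 factors with at least 10% coverage at E14.5, 66.7% fell by that much and the median gene kept 0.487 of its coverage. Of all 3743 such genes 47.7% fell and the median kept 0.490.

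**Figure D3:**
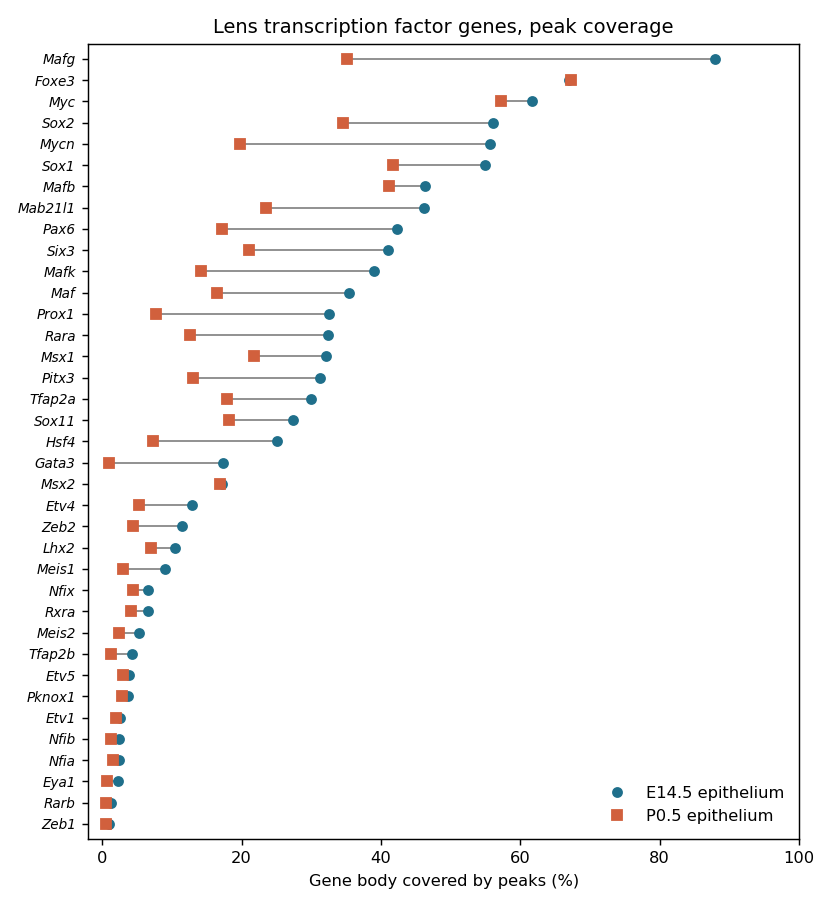
Percent of the gene body covered by peaks (horizontal axis) for the 37 lens transcription factor genes, with E14.5 epithelium as circles and P0.5 epithelium as squares, joined by a line. The squares lie to the left of their circle, as for Mafg at 88.0% and 35.2%, whereas those of Foxe3 nearly coincide at 67.0% and 67.3%.

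The coverage plot ranges from genes that kept their peaks to genes that lost most of them, and gene lists ranged as widely. Among lists with at least 7 genes of at least 10% coverage at E14.5, the median such gene kept 0.745 of it in the Notch list, 0.710 among immediate early and heat shock genes, 0.668 among cell cycle exit genes, 0.591 in the glucocorticoid and clock list and 0.575 in the Wnt list. Fos, Jun, Junb and Klf4, transcription factor genes induced within minutes of a stimulus, were covered at E14.5 and P0.5 over 49.6% and 45.1%, 79.8% and 72.3%, 82.3% and 82.2%, and 40.1% and 37.3%. Yet 12 of the 29 genes of their list fell by 10 points or more (41.4%, against 9.13% of all genes). Of the 22 with at least 10% coverage at E14.5 these were 54.5%, beside 47.7% of all such genes. At the other end stood crystallins at 0.262, lens capsule and integrin genes at 0.278 and lens fiber markers at 0.290, with Hox genes at 0.0382. Of the 42 capsule and integrin genes 5 fell (11.9%, near the 9.13% of all genes): Col4a1 and Col4a2, the main collagen IV chains of the young capsule (17.2% to 4.31% and 18.3% to 5.42%), Lama5, Nid1 and Hspg2, the perlecan gene (20.6% to 4.87%). Slc2a1, the main glucose transporter of the lens epithelium, went from 59.7% to 5.38%. Of the 46 genes of junctions, pumps and transporters, 6 fell by 10 points or more (13.0%, against 9.13% of all genes). Of the 8 with at least 10% coverage at E14.5 these were 75%, beside 47.7% of all such genes.

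Among regions that both stages shared, the order of promoters was largely kept. The 41564 shared regions were ranked in each list by their highest fold enrichment, and the ranks had a Spearman correlation of 0.814 over all regions, 0.898 at promoters and 0.632 elsewhere, as a description across regions that are not independent. Of 13231 genes with a shared promoter region, 447 rose (3.38%) and 228 fell (1.72%) by at least 25 percentage points of rank. The largest rises were those of Ecrg4, which encodes a secreted peptide precursor (95.2% to 16.1%), Abi3bp, a matrix protein (97.5% to 19.9%), Ankrd35, Nipal4, Gabrq, Trpc7, Fbxo41, Ppl, the junction protein periplakin, Gm19345 and Il1f5, by 54.4 to 79.1 points. The largest falls were those of Stab1, a scavenger receptor (28.8% to 96.7%), Igfals (33.5% to 96.7%), Zcchc10, the neighbours Ccdc103 and Eftud2, with the same ranks, Pygm, 4930404N11Rik, Pfas, Crygc and Gbx2 (38.4% to 91.3%).

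**Figure D4:**
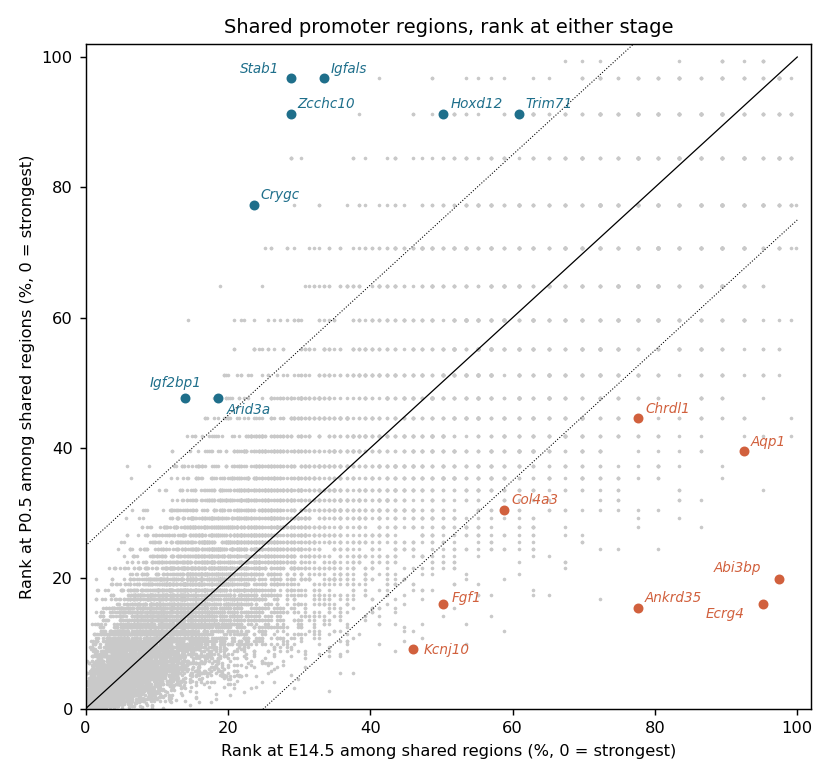
Rank of the shared promoter region at E14.5 (horizontal axis) and P0.5 (vertical axis), as percent of 41564 shared regions with the strongest at 0; each grey point is 1 of 13231 genes, the solid line marks equal rank and dotted lines a shift of 25 points. Named genes below the lines moved up at P0.5, as Ecrg4 did from 95.2% to 16.1%, and those above moved down, as Stab1 did from 28.8% to 96.7%.

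In the plot of shared ranks the genes that moved up included several of epithelial transport and adhesion. Of 42 ranked genes of junctions, pumps and transporters, 4 rose and 0 fell by at least 25 points, beside 3.38% and 1.72% of all ranked genes, with a list median of 4.17 points. Aqp1, the water channel of the lens epithelium, went from 92.5% to 39.5%, Kcnj10, an inward rectifier potassium channel, from 46.1% to 9.16%, Cdh11, a cadherin, from 60.8% to 25.6% and Cldn3, a tight junction claudin, from 83.4% to 55.2%. Ocln, the tight junction protein occludin, gained its single promoter peak (66.3% of P0.5 ranks), and Cldn4 and Slc2a3 lost theirs (4.44% of those with an E14.5 promoter peak, beside 8.20% of all genes at like ranks). Col4a3 and Col4a4, basement membrane collagen chains transcribed from 1 shared promoter, went from 58.9% to 30.5%, while Itga9, an integrin, went from 27.8% to 55.2%. These were the 2 that rose and the 1 that fell of 36 ranked capsule and integrin genes. Col15a1 was among the 2 genes of that list that lost their promoter peak (5% of those with one at E14.5, beside 7.22% of all genes at like ranks).

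The signalling lists lost 0 to 3 promoter peaks each, and 5 to 8 genes of each fell in coverage by at least 10 points. These falls were 11.1% of the Wnt, 13.8% of the BMP and TGF-beta, 12.8% of the FGF, 22.2% of the Notch and 17.9% of the Hippo list, against 9.13% of all genes. Of members with at least 10% coverage at E14.5 they were 30.4 to 55.6%, against 47.7% of all such genes. The 7 falls in the Wnt list included the receptor genes Fzd1 (66.6% to 44.8%), Fzd2 and Fzd5. In the BMP and TGF-beta list 5 of 52 ranked genes rose and 0 fell (3.38% and 1.72% of all ranked genes), among them the ligands Gdf6 (39.3% to 14.3%) and Gdf10 (55.2% to 27.9%), and the secreted BMP inhibitors Chrd (46.1% to 19.1%) and Chrdl1 (77.6% to 44.6%). Lefty1 and Lefty2, inhibitors of Nodal, lost promoter peaks at 50.8% and 61.2% of E14.5 ranks, and were the 2 lost of 55 genes with an E14.5 promoter peak (3.64%, beside 4.91% of all genes at like ranks). In the FGF list the ligand genes Fgf3, Fgf16 and Fgf17 lost theirs, at 50.8%, 61.2% and 68.5%, 3 of 44 (6.82%, beside 9.95% of all genes at like ranks). Fgf1, a ligand made in the eye, rose from 50.2% to 16.1% and Fgf13 from 53.4% to 26.7%. The Wnt list gained Wnt3a (75.7% of P0.5 ranks) and lost 0 of 63, with Wnt1 and Wnt2b rising by 26.8 and 25.5 points, 2 of 52 ranked genes as Fgf1 and Fgf13 were 2 of 41. The Notch list lost the receptor gene Notch4 of 27 (3.70%, beside 4.32% of all genes), the ligand gene Dll1 rising by 25.5 points, and of the Hippo list 0 of 28 was lost or gained, Dchs1 rising by 34.3, each the 1 rise among 25 ranked genes. Of all ranked genes 3.38% rose. Nfix, a nuclear factor I gene, was the 1 lens transcription factor past the limit, from 65.1% to 39.5%.

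The remaining lists changed at few promoters, where of all genes 4.32% lost and 1% gained a promoter peak. Antioxidant defence gained Gstm2 and Aldh3a1, an aldehyde dehydrogenase, and lost 0 of 42. Interferon and antigen presentation gained Psmb8, an immunoproteasome subunit, and Ciita, the switch of class II genes, and lost Cd74 and Isg15, of 31, the latter through a wide E14.5 peak that a P0.5 peak still overlapped. Of the 24 interferon genes with an E14.5 promoter peak this is 8.33%, beside 4.35% of all genes at like ranks. The immediate early list lost Hspa1a of 29, the glucocorticoid list lost Hsd11b1, which makes active glucocorticoid, of 31, and the retinoid list lost and gained 0 of 19. Ribosomal protein genes lost and gained 0 of 72, but only 15 of 69 ranked ones stood higher at P0.5, with a list median of -8.49 points against -0.152 over all genes. The list median was -9.82 with equal list sizes.

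E14.5-only peaks were spread widely: 1378 of 27268 windows of 100 kb held at least 10 of them, and 13 held at least 10 P0.5-only peaks. These window counts were taken on lists of unequal size, and the total of E14.5-only peaks falls to 21183 with equal list sizes. The 5 genes with the most E14.5-only peaks nearby are named here. Trpm3, a cation channel gene that hosts miR-204, had 173 E14.5 peaks within its body or 50 kb of it, of which 159 were E14.5-only, and 18 P0.5 peaks. Crim1, which encodes a transmembrane BMP-binding protein, had 145 E14.5-only of 199, Msi2, an RNA-binding protein, 133 of 177, Sipa1l3, a cataract gene, 133 of 184, and Arid1b, a chromatin remodeller subunit, 107 of 136. Coverage of Crim1 was 49.4% at E14.5 and 7.13% at P0.5, and 69.4% and 2.62% in fibers of these ages. All 5 genes kept a promoter peak.

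The longest stretch rich in P0.5-only peaks was 1 block of chromosome 17. From chr17:30431070-30935016 (GRCm38, 504 kb), which spans Btbd9, Glo1, Dnah8 and Glp1r, the P0.5 epithelium had 162 peaks, of which 148 were P0.5-only, and the E14.5 epithelium had 14. The stretches of equal length before and after it had 19 and 19 peaks at P0.5 and 40 and 39 at E14.5. The same block held 168 peaks in the P0.5 fibers and 16 in the E14.5 fibers. Of the P0.5-only epithelium peaks in it, 43.9% overlapped a P0.5 fiber peak, against 9.77% elsewhere. Of the 13 regions in the block shared by both stages, 11 ranked higher at P0.5, by a median of 18.2 points, and the promoter of Glo1, which detoxifies methylglyoxal, went from 9.37% to 0.186% of the shared ranks. Coverage of Glp1r, a peptide hormone receptor gene, went from 0.341% to 12.8%.

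**Figure D5:**
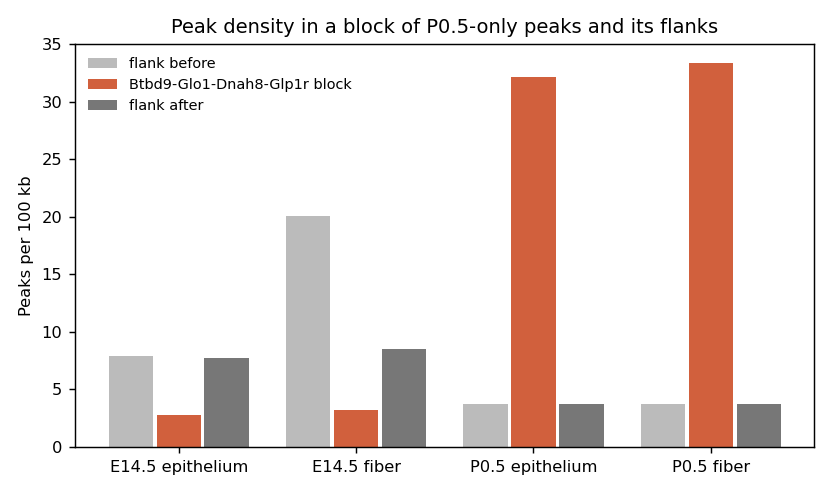
Peaks per 100 kb (vertical axis) in the 4 pooled lists within the 504 kb block of chromosome 17 and in the stretches of equal length on either side. The block is dense in both P0.5 lists (162 and 168 peaks) and sparse in both E14.5 lists (14 and 16), whereas the flanks are not denser at P0.5.

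The block in the density plot was thus dense in both tissues at P0.5 and in neither at E14.5, and its P0.5-only peaks were rarely promoters (3.38%) and not rich in repeats (median 10% of the window). Dnah8, a dynein of motile cilia, had no promoter peak in either epithelium list but 110 P0.5-only peaks of 117 within 50 kb. Smaller stretches rich in P0.5-only peaks, but dense at E14.5 too, were found at Hjurp, Mroh2a and the Ugt1a genes (chr1:88218199-88287168, 30 P0.5-only peaks, 65 and 66 peaks in the P0.5 lists against 44 and 31 in the E14.5 lists) and at Itln1 and Cd244a (chr1:171514118-171579366, 25 P0.5-only peaks, 48 and 47 against 27 and 36). The flanks of equal length held 0 to 6 peaks in every list. The mice were outbred, and whether the epithelium and fiber lists of an age came from the same animals is not stated. The copy number of these stretches in the mice was not tested. Without them, and 1 stretch of 12.1 kb on chromosome 7, 12598 P0.5-only peaks and 209 gained genes were left.

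Short sequence motifs differed by at most 3.39 points between all peaks of either kind, and by up to 6.61 when as many of the strongest E14.5-only peaks were taken as there were P0.5-only peaks. The largest gain among the 25 motifs searched was that of the E-box CAGGTG, bound by Zeb and Snail factors. It was in 15.4% of E14.5-only and 18.8% of P0.5-only peaks, a difference of 3.39 points (2.66 to 4.13). The difference was 2.97 at equal GC content and 6.61 with the strongest E14.5-only peaks. The latter comparison kept all P0.5-only peaks, so it was not matched for rank. The NF1 palindrome rose from 0.286% to 1.04%, by 0.753 points (0.585 to 0.949), and TAATTA, the homeobox core, from 1.82% to 2.69%, by 0.872 (0.583 to 1.18). Lower at P0.5 were TGCTGA, a Maf site, at 22.5% and 20.4%, by -2.18 points (-2.95 to -1.40), and CCNCTAG, part of the CTCF site, at 10% and 7.82%, by -2.18 (-2.70 to -1.65). With the strongest E14.5-only peaks these differences were -4.27 (-5.29 to -3.25) for Maf and -6.50 (-7.27 to -5.74) for CTCF. The difference of the Sox letters went from -1.16 to -3.88, but to -0.454 at equal GC content. The Tead letters GGAATG were in 15.4% and 15.6%, a difference of 0.186 (-0.500 to 0.887), which was -2.77 (-3.69 to -1.85) with the strongest E14.5-only peaks. GGGCGG, bound by Sp and Klf factors, was in 6.90% and 7.74%, far under the 30% and 30.3% of the shared peaks of either list. All shares were taken in 200 bp around the summit on both strands, and the shared peaks held the NF1 palindrome at 0.613% and 0.621%.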

How the data were processed

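Per the submitters' processing notes and the study's methods, the authors trimmed reads with Trim Galore (0.4.1), aligned them to mm10 with Bowtie2 (2.3.3.1), removed mitochondrial and duplicate reads with SAMtools (1.2) and Picard (2.1.1), and called peaks with MACS2 (2.1) on the 2 pooled libraries of each group at q 0.05. The deposited narrowPeak lists give for each peak a score, a fold enrichment over background (a ratio), a −log10 p-value, a −log10 q-value and the summit. Depth is not in the lists, no blacklist was applied here, and 82 E14.5 and 90 P0.5 peaks on unplaced scaffolds were left out of positions. All columns used belong to a labelled group (0 unassigned). The edgeR test that the authors ran on read counts cannot be run on peak lists.

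Peaks were ranked within their list by fold enrichment (ties shared) and compared by 1 bp of overlap. Genes, start sites and bodies were those of curated RefSeq transcripts on GRCm38, promoters lay within 2 kb of a start site, and gene body coverage was taken for genes of at least 1 kb, with a limit of 10 percentage points. Shared regions joined overlapping peaks of both lists, with a limit of 25 percentage points of rank. Lists were matched by symbol, and genes absent from the curated coding set (H19, Meg3, Spry3, Mx1) were not counted. Named genes were the 10 highest-ranked lost and gained, the 5 largest changes of coverage in each direction, the 5 with the most peaks of either kind nearby, those at the 5 strongest peaks, the 10 largest rank shifts in each direction, and members of 27 gene lists that passed a limit; a few further list members named with their values were chosen afterwards, as were the blocks. A few list members that passed a limit are not reported here. The members and lists were chosen with earlier results of these data known. A gene list was compared with all genes only by counts. Alternatives were other q limits, equal list sizes, overlaps, promoter widths, transcripts and coverage limits. The steps ran in Python 3.11.15 with pandas 2.3.3, NumPy 2.4.6, SciPy 1.17.1 and pysam 0.24.0 and were tested on simulated data.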

Additional observations from a re-analysis of the deposited data

How the results depend on the processing

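No paired analysis was possible because each group is 1 pooled peak list, and for the same reason no library could be left out. With q under 0.001 in both lists, 8442 P0.5-only peaks and 8 genes with a rise of coverage were counted, and with strict presence 7964 P0.5-only peaks, 137 gained genes and 7 rises. With equal list sizes there were 21183 E14.5-only peaks (and 17216 P0.5-only), 12.8% and 12.6% of them at promoters, 463 lost and 499 gained genes, 8 lost Hox genes, and 1129 falls and 37 rises of coverage; this alternative removes the weakest E14.5 peaks by construction. An overlap of 50% of both peaks gave 30385 P0.5-only peaks and promoter shares of 17.4% and 26.3%, so that the order of these shares turned, and a 500 bp margin gave 11.1% and 7.39%. Promoters within 1 kb held 8.18% and 6.60%, and with predicted transcripts 20.9% and 17.1%. Coverage without the first 2 kb gave 1003 falls, and a limit of 20 points gave 654 falls and 1 rise. A limit of 35 points on the shared regions gave 1350 higher and 1311 lower, against 3243 and 3183. Without peaks at repeats, 56335 and 12499 peaks were left. In all, 35 other values stayed close to those reported (counts within 1.5 times) and these 27 moved, and of the motif differences 37 stayed within their interval and 13 did not, with no change of sign where the interval excluded 0. Depth per library is not in the lists, so what it limits was not tested.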

Other observations

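E14.5-only peaks outnumbered P0.5-only peaks near genes in general, at 133450 and 25619 summed over all protein-coding genes with a distance of up to 50 kb. By the same count 373 E14.5-only and 40 P0.5-only peaks lay near the 16 lens epithelium markers, and 547 and 55 near the 37 lens transcription factors. Near the 39 Hox genes the numbers were 395 and 16, with peaks near neighbouring genes counted for each. Crybb1, a beta-crystallin gene, had a promoter peak at both stages but not the same one: the E14.5 peak, at -103 bp from the start site and rank 10407, had no partner at P0.5, where the best promoter peak stood at 75.7% of the ranks. Gabrg1, a GABA receptor subunit gene, showed the opposite, with a P0.5-only promoter peak 258 bp inside the gene at rank 10535 of the P0.5 list and an E14.5 promoter peak at 61.2%. Both were noticed among the 20 strongest peaks of their kind after the values were seen.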
